A study of Mus musculus with 6 samples.

Results

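Interferon-stimulated genes are the genes that cells switch on when an interferon, a cytokine released on infection, binds its receptor. A list of 46 such mouse genes was followed in pre-B cells, B-lineage precursors of the bone marrow, that had been transformed with BCR-ABL1, the fusion kinase of Philadelphia chromosome-positive acute lymphoblastic leukaemia. A gene was a member if it was on the list and had a probe set that the platform annotation ties to that gene alone. Where a gene had several, the brightest on average was used. This gave 43 members among 19938 genes measured in the same way. Isg15 and Gbp2 share their probe sets with another gene, and they and Ifi44 were not analysed here.

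All cells were of strain 129P2/OlaHsd, were labelled Ptpn6 +/fl (1 unfloxed and 1 floxed allele of the gene for the tyrosine phosphatase SHP-1), had been selected in puromycin and had received 0.5 micromolar 4OH-Tamoxifen for 2 days. In 3 arrays the cells carried the vector PMIP-CRE-ERT2, in which the recombinase Cre is fused to a tamoxifen-activated receptor domain. In the other 3 they carried PMIP-ERT2, which has that domain without Cre. The study asked what Ptpn6 does in such cells. A retained unfloxed allele in both groups limits the model to the loss of at most 1 copy, and the labels do not say whether the samples of a group were separate cultures, so the p-values reflect the variation among these arrays, which may be technical.

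In the textbook pathway, type I interferons bind the receptor chains IFNAR1 and IFNAR2, the kinases TYK2 and JAK1 are activated, and a complex that holds STAT2 and IRF9 binds the interferon-stimulated response element (ISRE). Interferon gamma acts through its own receptor and on promoters that hold the gamma-activated site (GAS). The induced proteins sense foreign nucleic acid, block steps of viral growth, load peptides on MHC class I molecules and damp the signal again. In the B lineage, type I interferon is known as an inhibitor of the growth of early precursors, and SHP-1 is known as a phosphatase that can act on JAK kinases.

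Ptpn6, the targeted gene, had log2 expression of 11.36, 11.25 and 11.20 on the CRE-ERT2 arrays, against 11.25, 11.39 and 11.39 on the ERT2 arrays. The groups overlapped, and the difference of -0.07 (95% confidence interval -0.24 to 0.10) did not pass in limma (adjusted p = 0.759). Whether its probe set lies in the floxed part is not known here, so the groups are called by their labels. Array medians were 7.90 to 7.98. The mean log2 level of 11 pre-B cell markers was 12.31 to 12.38 on the CRE-ERT2 arrays and 12.23 to 12.33 on the ERT2 arrays. Of these markers Dntt rose (0.48) and Rag2 fell (-0.53), and the part of such shifts in the results was not tested. Among 48 measured markers of other cell types, 1 passed (2.08%, where 2.30% of all genes were higher), the progenitor receptor gene Flt3 (0.53). The mean level of 10 T and NK cell markers was 6.8727 to 6.9180 on the CRE-ERT2 arrays and 6.8950 to 6.9997 on the ERT2 arrays. For 11 macrophage and monocyte markers it was 7.23 to 7.34 on the CRE-ERT2 arrays and 7.23 to 7.33 on the ERT2 arrays. For 8 dendritic cell markers it was 7.71 to 7.79 on the CRE-ERT2 arrays and 7.69 to 7.78 on the ERT2 arrays. The dendritic cell list shares Bst2 with the interferon-stimulated genes. Detection calls were not used here, so a level near background cannot be told from a low one.

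Of the 43 interferon-stimulated genes, 16 were higher in CRE-ERT2 cells at a limma adjusted p under 0.05, 0 were lower and 27 did not pass. Over all genes tested, 2.30% were higher and 2.28% lower by the same rule. At an unadjusted p under 0.05, 28 of the 43 members passed, against 16.4% of all genes, and of the 28 Ifit2 alone was lower. The median difference of the 43 members was 0.23 on the log2 scale, where the median of all genes was -0.03. For 27 members all 3 CRE-ERT2 arrays lay above all 3 ERT2 arrays, as they did for 6.92% of all genes. For Ifit2 they lay below, as for 15.5% of all genes. The difference was above 0 for 40 of 43 members and for 38.9% of all genes. The increases were modest: those of the 16 genes were 0.29 to 1.02 on the log2 scale, and the greatest was that of Rtp4, at 2.03-fold. In whole-culture RNA, a change in every cell and a change in the share of cells that express a gene cannot be told apart.

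The members' mean level was higher on each CRE-ERT2 array than on each ERT2 array. Averaged over the 43 members, the deviation from each gene's mean was 0.19, 0.12 and 0.11 on CRE-ERT2 replicates 1, 2 and 3, against -0.10, -0.13 and -0.19 on ERT2 replicates 1, 2 and 3. Over all genes the same averages lay between -0.02 and 0.04. CRE-ERT2 replicate 1 was the highest array of its group for 13 of the 16 genes that passed, while no ERT2 array held that place for more than 7. The count of genes that rose was 10 when CRE-ERT2 replicate 1 was left out (1.44% of all genes), and 10 when ERT2 replicate 1 was (1.64%). It was 14 (1.77%) or 11 (1.43%) on leaving out the second or the third CRE-ERT2 array, and 15 (2.13%) or 14 (2.10%) on leaving out the second or the third ERT2 array. With the 6 arrays kept, it was 17 after a further quantile normalization (2.72%, with 1.75% of all genes lower), 17 with arrays centred on their medians (2.62%), 17 without dim genes (4.06%), 15 with the probe sets of a gene averaged (2.29%), 19 with a trended, robust variance (2.94%) and 15 with array weights (2.34%). With 35556 probe sets in the test instead of genes, 6 of the 16 passed (Usp18, Ddx58, Zbp1, Oas2, Rtp4 and Lgals3bp), against 0.529% of all probe sets, and these 6 passed under all 14 alternatives. The others had an adjusted p of 0.0643 to 0.204 in that test.

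**Figure D1:**
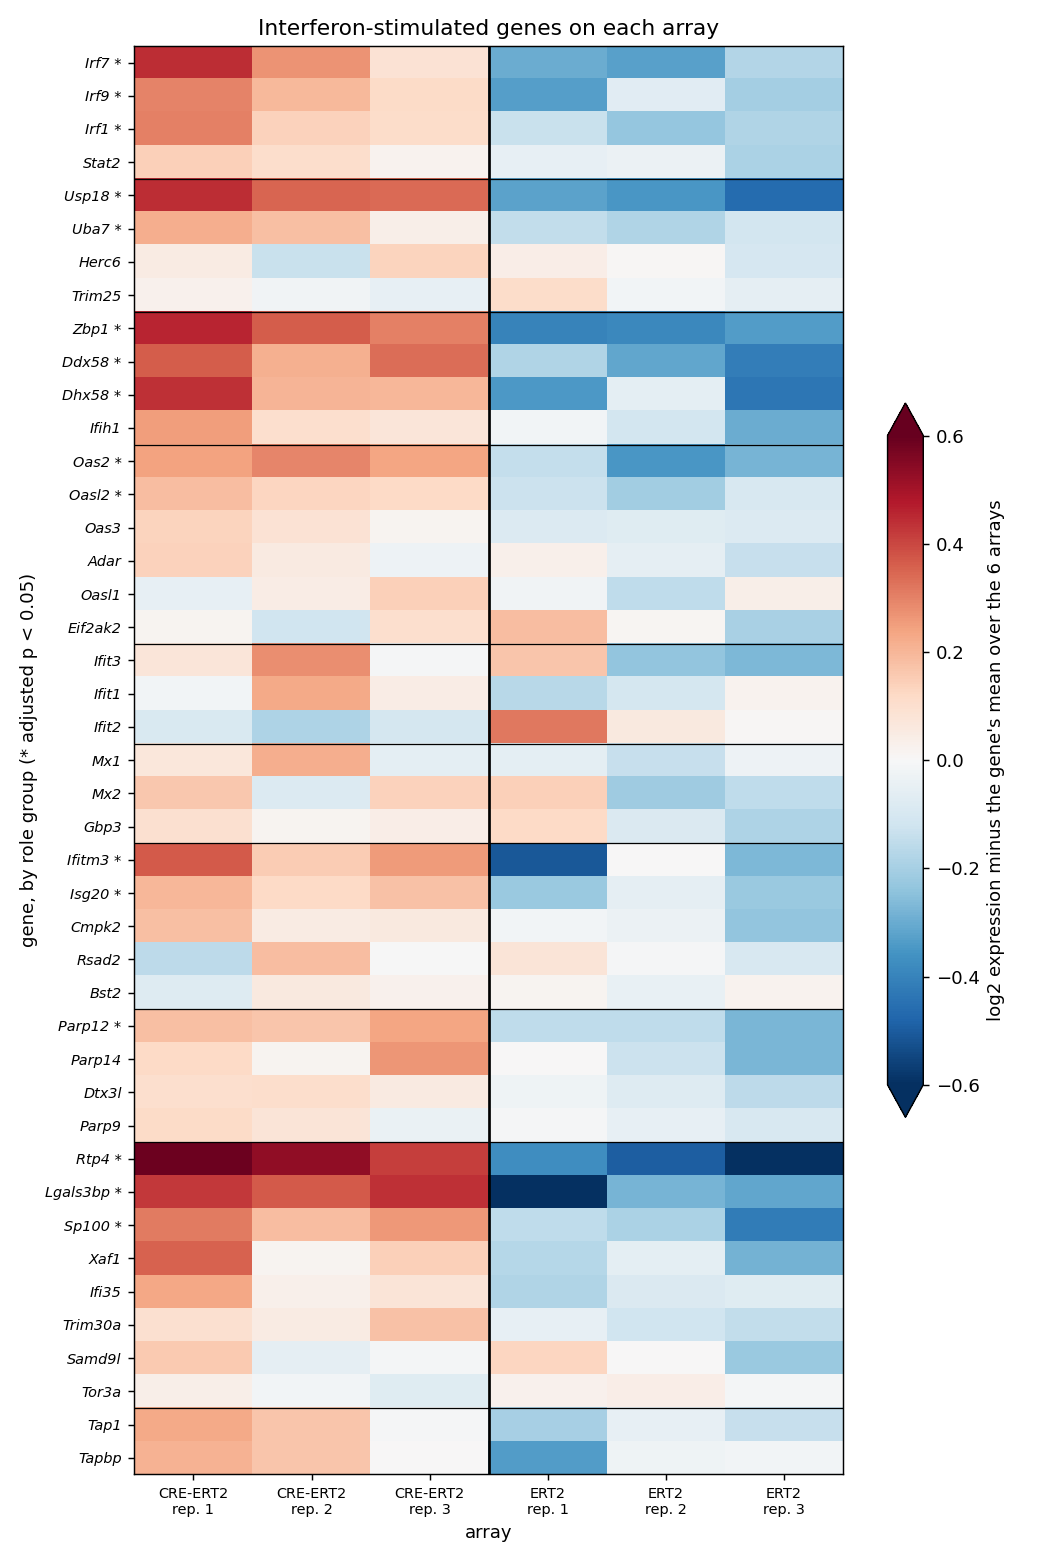
Log2 expression of the 43 interferon-stimulated genes on each array (columns, 3 CRE-ERT2 arrays left and 3 ERT2 arrays right) minus the gene's mean over the 6 arrays (colour), by role group (rows); an asterisk marks the 16 genes at a limma adjusted p under 0.05. Rtp4, Lgals3bp, Usp18 and Zbp1 show the strongest contrast between the groups, and the rows of Eif2ak2, Bst2 and Trim25 show little.

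Promoter sequences are shown for members that rose and carry a match to one of the pathway's motifs, and then for classical members that carry an ISRE match and did not pass. RefSeq windows of 250 bases before to 50 after a transcription start (mouse build GRCm38.p6) were held for 33 of the 43 members. The ISRE core was searched as GAAA, any bases NN, then GAAA, and the GAS as TTCNNNGAA, both on either strand, and capitals mark the matches to the motif named for each gene. The first 2 stretches hold the ISRE core. Ddx58 is shown at chr4:40239796-40239885 and Ifitm3 at chr7:141010715-141010804, both on the minus strand, with the matches 3 to 12 and 3 to 29 bases into the transcript. The 2 matches of Ifitm3 are separate, and a GAS match overlaps the second. The GAS is shown for Irf1 at chr11:53769883-53769972 and for Isg20 at chr7:78913310-78913399, both on the plus strand, starting at -90 and -73 from the start.
Ddx58: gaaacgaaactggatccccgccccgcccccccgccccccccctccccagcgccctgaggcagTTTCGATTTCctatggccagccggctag
Ifitm3: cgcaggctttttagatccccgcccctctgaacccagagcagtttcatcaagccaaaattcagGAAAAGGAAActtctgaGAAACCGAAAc
Irf1: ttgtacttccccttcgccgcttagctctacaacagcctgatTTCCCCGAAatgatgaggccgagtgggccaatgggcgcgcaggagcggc
Isg20: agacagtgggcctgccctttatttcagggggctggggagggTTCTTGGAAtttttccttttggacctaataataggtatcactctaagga

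The members that did not pass are shown with their ISRE core matches. Ifit1 lies at chr19:34640754-34640843 and Ifit3 at chr19:34583350-34583439 on the plus strand, each with 2 matches, the first starting at -104 and -156. Rsad2 lies at chr12:26456523-26456612 and Bst2 at chr8:71537550-71537639 on the minus strand, with matches starting at -120 and -130. Those of Bst2 are 2 that overlap each other, and the first also overlaps a GAS match.
Ifit1: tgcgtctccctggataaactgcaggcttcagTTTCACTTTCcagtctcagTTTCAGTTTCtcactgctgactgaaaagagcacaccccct
Ifit3: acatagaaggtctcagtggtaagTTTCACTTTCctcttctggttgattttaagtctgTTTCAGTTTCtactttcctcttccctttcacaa
Rsad2: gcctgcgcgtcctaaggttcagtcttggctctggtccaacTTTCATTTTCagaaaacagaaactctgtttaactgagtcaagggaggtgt
Bst2: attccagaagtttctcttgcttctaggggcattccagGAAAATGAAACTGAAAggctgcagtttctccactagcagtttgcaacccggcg

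An ISRE core stood in the windows of 12 of 33 members (36.4%), against 3.89% of the 15614 tested genes with a window and 3.44% of all 32851 windows. It stood in 2 of the 11 members that rose and have a window, and in 10 of the 22 that did not pass. A GAS match stood in 8 of 33 members (24.2%), against 8.99% of the tested genes and 8.30% of all windows. It stood in 3 of the 11 (Irf1, Isg20 and Ifitm3) and in 5 of the 22. Both motifs stood in 3 members and neither in 16, among them Lgals3bp, Irf7, Sp100, Irf9, Parp12, Uba7 and Oasl2, which rose. The median log2 difference was 0.17 for the 12 members with an ISRE core and 0.26 for the 21 without. The 10 members without a window are in none of these values. Among them Rtp4 (1.02), Usp18 (0.76), Zbp1 (0.75), Dhx58 (0.56) and Oas2 (0.52) rose, so the split of the members that rose is incomplete. A match is a description of letters, and the shares were not tested.

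**Figure D2:**
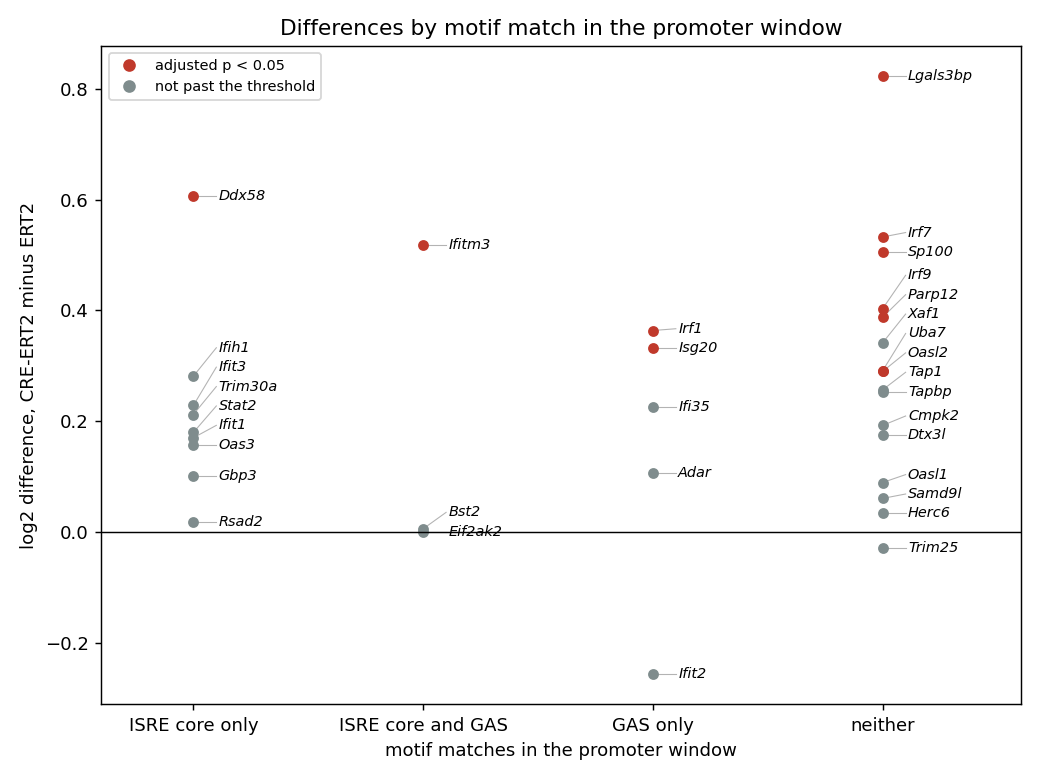
Log2 difference, CRE-ERT2 minus ERT2 (vertical axis), of the 33 members with a promoter window, by whether the window holds a match to the ISRE core, the GAS, both or neither (horizontal axis). Red points are genes at a limma adjusted p under 0.05 and grey points the others; red genes stand in all 4 columns, and Lgals3bp, with neither motif, is the highest.

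The transcription factors of the pathway rose in 3 of 4 cases. Irf7, which drives the genes for interferon alpha, had log2 values of 8.42, 8.25 and 8.07 on the CRE-ERT2 arrays, against 7.68, 7.66 and 7.80 on the ERT2 arrays. Irf9, the DNA-binding subunit of the STAT complex, had 9.98, 9.88 and 9.80 on the CRE-ERT2 arrays, against 9.35, 9.62 and 9.48 on the ERT2 arrays. In both genes every CRE-ERT2 array lay above every ERT2 array, with the highest values on CRE-ERT2 replicate 1. Irf7 rose by 0.53 ± 0.09 (SE; 1.45-fold, limma adjusted p = 0.00451) and Irf9 by 0.40 ± 0.09 (1.32-fold, adjusted p = 0.0163). Irf1, which is itself induced by interferon gamma and activates antigen presentation genes, had values of 11.22, 11.06 and 11.03 on the CRE-ERT2 arrays, against 10.79, 10.69 and 10.74 on the ERT2 arrays. Its groups did not overlap, and it rose by 0.36 ± 0.08 (adjusted p = 0.0168). A second Irf1 probe set changed by 0.15 (unadjusted p = 0.0814 with limma over all probe sets), and on the mean of its 2 probe sets Irf1 did not pass (adjusted p = 0.0705). Without CRE-ERT2 replicate 1, the calls of Irf1 (0.0730) and Irf9 (0.0765) were lost, as was that of Irf9 without ERT2 replicate 1 (0.0804). Stat2, the partner of IRF9, differed by 0.18 and did not pass (adjusted p = 0.252), although its groups did not overlap.

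ISG15 is a ubiquitin-like protein that is joined to other proteins, and 2 of the 4 measured genes grouped under its conjugation and removal rose. Usp18, the protease that removes ISG15 and also damps signalling from the type I interferon receptor, had 9.16, 9.07 and 9.06 on the CRE-ERT2 arrays, against 8.40, 8.37 and 8.26 on the ERT2 arrays. The replicates of each group lay close together, and the groups were well apart. Usp18 rose by 0.76 ± 0.07 (SE; 1.69-fold, limma adjusted p = 5.41e-05). Uba7, the enzyme that activates ISG15 for conjugation, had 9.78, 9.74 and 9.59 on the CRE-ERT2 arrays, against 9.41, 9.38 and 9.44 on the ERT2 arrays. Its rise of 0.29 was near the threshold (adjusted p = 0.0463). Leaving out any 1 of the 6 arrays ended the call, with adjusted p from 0.0602 without CRE-ERT2 replicate 3 to 0.175 without CRE-ERT2 replicate 2, and so did array weights (0.0607). Herc6, an ISG15 ligase in mice, differed by 0.034 and Trim25, a ubiquitin ligase that acts on RIG-I, by -0.028, both with overlapping groups.

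Sensors of foreign nucleic acid held the highest median of the role groups, 0.58, and 3 of 4 rose. Zbp1, which senses Z-form nucleic acid, had 9.39, 9.30 and 9.24 on the CRE-ERT2 arrays, against 8.54, 8.55 and 8.60 on the ERT2 arrays. Ddx58, the gene of RIG-I, a sensor of viral RNA, had 11.14, 10.99 and 11.11 on the CRE-ERT2 arrays, against 10.59, 10.46 and 10.36 on the ERT2 arrays. Both genes were separated by far more than the spread within either group: Zbp1 rose by 0.75 ± 0.07 (SE; 1.68-fold, limma adjusted p = 5.21e-05) and Ddx58 by 0.61 ± 0.08 (1.52-fold, adjusted p = 0.000702). Dhx58, which encodes the related helicase LGP2, had 9.27, 9.03 and 9.03 on the CRE-ERT2 arrays, against 8.48, 8.77 and 8.40 on the ERT2 arrays. ERT2 replicate 2 stood closest to the other group, and the rise was 0.56 ± 0.10 (adjusted p = 0.00683, but 0.0591 without ERT2 replicate 1). Ifih1, which encodes the RNA sensor MDA5, differed by 0.28 with groups that did not overlap, and did not pass (adjusted p = 0.101).

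Enzymes that act on or answer to double-stranded RNA were divided, with 2 of 6 higher. Oas2, a synthase of the oligoadenylates that activate RNase L, had 8.12, 8.17 and 8.12 on the CRE-ERT2 arrays, against 7.74, 7.53 and 7.60 on the ERT2 arrays. Oasl2, a related protein, had 8.03, 7.97 and 7.97 on the CRE-ERT2 arrays, against 7.72, 7.64 and 7.75 on the ERT2 arrays. Neither gene's groups overlapped. Oas2 rose by 0.52 ± 0.08 (SE; 1.43-fold, limma adjusted p = 0.00146). Oasl2 rose by 0.29 ± 0.07 (adjusted p = 0.0366), a call that was lost without CRE-ERT2 replicate 1 (0.112), 2 (0.109) or 3 (0.124) and without ERT2 replicate 1 (0.0838) or 2 (0.111). Their neighbours on chromosome 5 did not pass: Oas3, next to Oas2, differed by 0.16 and Oasl1, next to Oasl2, by 0.089, and the differences within these pairs were not tested. Adar, which edits adenosine in double-stranded RNA, differed by 0.11. Eif2ak2, the kinase PKR that halts translation, differed by 0.00052 (95% confidence interval -0.21 to 0.21), with overlapping groups. The genes of the 2-5A family are similar in sequence, and a probe set of one could in part read another.

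The IFIT genes, whose proteins bind foreign RNA and which are among the most strongly induced genes of a type I interferon response, gave no call. Ifit3 had 6.89, 7.10 and 6.81 on the CRE-ERT2 arrays, against 6.98, 6.58 and 6.55 on the ERT2 arrays. Ifit2 had 9.36, 9.27 and 9.35 on the CRE-ERT2 arrays, against 9.78, 9.52 and 9.46 on the ERT2 arrays. The groups of Ifit3 overlapped, and those of Ifit2 did not and ran the other way. The differences were 0.23 for Ifit3 (95% confidence interval -0.02 to 0.48, limma adjusted p = 0.357), -0.26 for Ifit2 (-0.45 to -0.07, adjusted p = 0.140) and 0.17 for Ifit1 (adjusted p = 0.357). The difference of Ifit2 was -0.16 without ERT2 replicate 1, and that of Ifit3 was 0.37 without ERT2 replicate 1, 0.15 without CRE-ERT2 replicate 2 and 0.15 without ERT2 replicate 3. Ifit2 and Ifit3 are neighbours on chromosome 19. Ifit1 and Ifit3 were among 5 members (with Mx1, Mx2 and Rsad2) in the dimmest 33.3% of genes.

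The interferon-induced GTPases Mx1 and Mx2, which block viral replication, and the guanylate-binding protein gene Gbp3 did not pass either. Mx1 had 5.16, 5.31 and 5.03 on the CRE-ERT2 arrays, against 5.03, 4.95 and 5.06 on the ERT2 arrays. Mx2 had 6.43, 6.19 and 6.40 on the CRE-ERT2 arrays, against 6.41, 6.05 and 6.11 on the ERT2 arrays. Groups overlapped in both genes. Mx1 differed by 0.15 (95% confidence interval -0.03 to 0.33, limma adjusted p = 0.406), Mx2 by 0.15 (-0.07 to 0.37, adjusted p = 0.557) and Gbp3 by 0.10 (adjusted p = 0.653). When 1 array was left out, the difference of Mx1 was 0.082 (without CRE-ERT2 replicate 2) to 0.22, and that of Mx2 was 0.078 (without ERT2 replicate 2) to 0.26 (without ERT2 replicate 1).

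Among restriction factors, 2 of 5 rose. Ifitm3, which stops viruses from leaving the endosome, had 10.01, 9.80 and 9.90 on the CRE-ERT2 arrays, against 9.13, 9.64 and 9.38 on the ERT2 arrays. Isg20, a nuclease that degrades RNA, had 10.87, 10.79 and 10.85 on the CRE-ERT2 arrays, against 10.45, 10.62 and 10.45 on the ERT2 arrays. The SD of Ifitm3 was 0.11 on the CRE-ERT2 arrays and 0.25 on the ERT2 arrays, and the groups of both genes stayed apart. Ifitm3 rose by 0.52 ± 0.11 (SE; 1.43-fold, limma adjusted p = 0.0196) and Isg20 by 0.33 ± 0.08 (1.26-fold, adjusted p = 0.0256). The call of Ifitm3 was lost without CRE-ERT2 replicate 1 (0.0910) or 3 (0.102) and without ERT2 replicate 1 (0.0895). That of Isg20 was lost without CRE-ERT2 replicate 1 (0.0876), 2 (0.0551) or 3 (0.119) and without ERT2 replicate 1 (0.0960) or 3 (0.0643). Cmpk2, a mitochondrial nucleotide kinase, differed by 0.19, and its neighbour on chromosome 12, the viperin gene Rsad2, by 0.018. Bst2, whose product tetherin holds budding virus at the cell surface, differed by 0.0058. The groups of Rsad2 and Bst2 overlapped.

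Of the ADP-ribosylation genes, 1 of 4 rose. Parp12, a mono-ADP-ribosyltransferase, had 7.95, 7.94 and 8.01 on the CRE-ERT2 arrays, against 7.62, 7.62 and 7.50 on the ERT2 arrays. It rose by 0.39 ± 0.07 (SE; 1.31-fold, limma adjusted p = 0.00733), with an adjusted p of 0.0565 without CRE-ERT2 replicate 3. Parp14, a transferase of the same kind, had 9.99, 9.89 and 10.14 on the CRE-ERT2 arrays, against 9.88, 9.75 and 9.60 on the ERT2 arrays. The lowest CRE-ERT2 array of Parp14 lay just above its highest ERT2 array, and the difference of 0.27 did not pass (adjusted p = 0.138). Parp14, Dtx3l and Parp9 lie side by side on chromosome 16, and Dtx3l, the ubiquitin ligase that pairs with PARP9, differed by 0.17 and Parp9 by 0.10, neither past the threshold.

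The remaining induced genes held the largest differences of the list, and 3 of 8 rose. Rtp4, a receptor-transporting protein gene, had 8.45, 8.39 and 8.27 on the CRE-ERT2 arrays, against 7.49, 7.36 and 7.19 on the ERT2 arrays. Lgals3bp, which encodes a secreted galectin-binding glycoprotein, had 10.98, 10.93 and 11.00 on the CRE-ERT2 arrays, against 9.91, 10.28 and 10.24 on the ERT2 arrays. Sp100, a gene for a component of nuclear bodies, had 10.45, 10.32 and 10.40 on the CRE-ERT2 arrays, against 9.99, 9.95 and 9.72 on the ERT2 arrays. In these 3 genes the gap between the groups was larger than the range within the CRE-ERT2 group, and ERT2 replicate 1 was the lowest array of Lgals3bp. Rtp4 rose by 1.02 ± 0.09 (SE; 2.03-fold, limma adjusted p = 1.99e-05), Lgals3bp by 0.82 ± 0.10 (1.77-fold, adjusted p = 0.000195) and Sp100 by 0.51 ± 0.08 (1.42-fold, adjusted p = 0.00368). Xaf1, whose product binds the caspase inhibitor XIAP, differed by 0.34 and did not pass (adjusted p = 0.0640). Ifi35 differed by 0.23, Trim30a by 0.21, Samd9l by 0.061 and Tor3a by -0.036, none past the threshold.

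**Figure D3:**
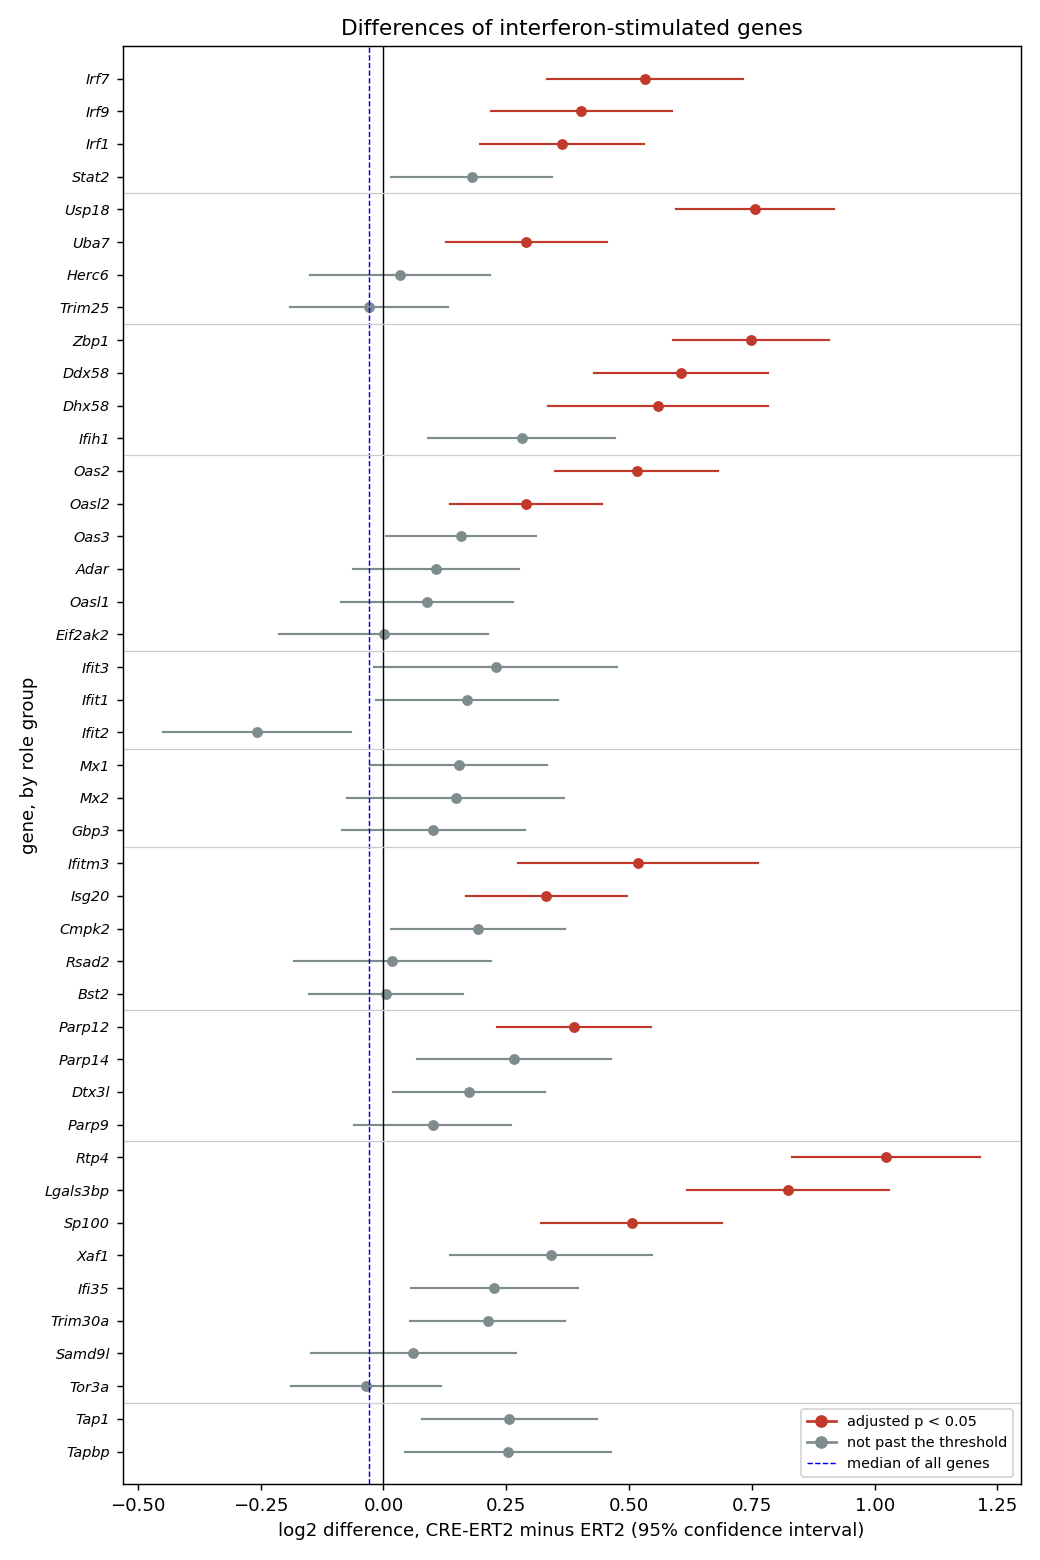
Log2 difference, CRE-ERT2 minus ERT2 (horizontal axis, points), with its 95% confidence interval (bars) for the 43 genes (vertical axis, by role group). The 16 genes in red have a limma adjusted p under 0.05 and all lie above 0; Ifit2 is the lowest at -0.26, and the dashed line is the median of all genes at -0.03.

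Peptide loading of MHC class I molecules was represented by 2 members, and neither passed. Tap1, a subunit of the peptide transporter, had 11.57, 11.50 and 11.33 on the CRE-ERT2 arrays, against 11.14, 11.29 and 11.20 on the ERT2 arrays. Tapbp, which encodes the loading chaperone tapasin, had 11.89, 11.85 and 11.68 on the CRE-ERT2 arrays, against 11.34, 11.65 and 11.66 on the ERT2 arrays. In both genes CRE-ERT2 replicate 3 lay closest to the ERT2 arrays. The differences were 0.26 for Tap1 (95% confidence interval 0.08 to 0.44, limma adjusted p = 0.111) and 0.25 for Tapbp (0.04 to 0.46, adjusted p = 0.192). Tap1 passed after a further quantile normalization (0.0464) and with a trended, robust variance (0.0332). Of 12 further genes of class I presentation and the immunoproteasome, 0 passed with limma, 2 had an unadjusted p under 0.05 (a share near the 16.4% of all genes), and the median difference was 0.10. The peptide-editing gene Tapbpl (0.32, adjusted p = 0.0707) and Nlrc5 (0.19, 0.294), which activates class I genes, had the lowest p. Nlrc5 has 19 probe sets tied to it alone, and these values are those of the brightest. Tapbpl passed after a further quantile normalization (0.0467), without dim genes (0.0398) and with a trended, robust variance (0.0317).

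No gene for an interferon itself passed. Of 16 measured (5 share their probe sets with other genes), 0 passed with limma, 1 had an unadjusted p under 0.05 (16.4% of all genes did), and the median difference was -0.0053. Ifnl2, a type III interferon gene, differed by 0.24 (adjusted p = 0.295) and Ifna14 by -0.17 (0.452), both with overlapping groups. The other interferon genes differed by less than Ifnl2, and whether their probe sets stood above background is unknown. Among receptors and JAK-STAT genes, 2 of 10 rose (2.30% of all genes did). Ifnar1, a chain of the type I interferon receptor, had 12.10, 12.05 and 12.07 on the CRE-ERT2 arrays, against 11.75, 11.69 and 11.74 on the ERT2 arrays, a rise of 0.35 ± 0.07 (SE; limma adjusted p = 0.0109, but 0.0585 without CRE-ERT2 replicate 3). Il10rb, a chain shared by the receptors for type III interferons and IL-10, rose by 0.37 ± 0.09 (adjusted p = 0.0347). That call was lost without CRE-ERT2 replicate 1 (0.118), 2 (0.0645) or 3 (0.140) and without ERT2 replicate 1 (0.119). The kinase genes Jak1 and Tyk2 differed by -0.015 and 0.053, with overlapping groups.

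Sensing genes upstream of interferon held 2 that rose and 1 that fell among 17 measured, and their median difference was 0.06. Of all genes tested, 2.30% were higher and 2.28% lower. Tlr9, the endosomal receptor for unmethylated DNA, had 10.41, 10.39 and 10.28 on the CRE-ERT2 arrays, against 9.53, 9.67 and 9.73 on the ERT2 arrays. It rose by 0.71 ± 0.08 (SE; 1.64-fold, limma adjusted p = 0.000141). Tlr7, the receptor for single-stranded RNA, rose by 0.44 ± 0.10 (adjusted p = 0.0252), a call lost without CRE-ERT2 replicate 1 (0.105) or 3 (0.143) and without ERT2 replicate 1 (0.105) or 3 (0.0582). Tlr4, the receptor for bacterial lipopolysaccharide, had 8.08, 7.74 and 7.95 on the CRE-ERT2 arrays, against 8.68, 8.58 and 8.32 on the ERT2 arrays. It was the sensing gene that fell, with a difference of -0.60 ± 0.11 (adjusted p = 0.00520). The 12 negative regulators, with Ptpn6 among them, had a median difference of -0.02. The difference was above 0 for 3 of the 12 and for 38.9% of all genes. Of the 12, 1 rose (2.30% of all genes did), which was Socs1, an inhibitor of JAK kinases that interferon induces. Socs1 had 10.34, 10.37 and 10.21 on the CRE-ERT2 arrays, against 9.77, 9.86 and 9.95 on the ERT2 arrays. Its rise was 0.45 ± 0.08 (1.37-fold, adjusted p = 0.00473). Ptpn2, a phosphatase of JAK and STAT proteins, differed by -0.24 on the brighter of its 2 probe sets and did not pass (adjusted p = 0.214).

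Interferon-induced genes outside the list showed 10 higher, 0 lower and 34 not past the threshold among 44 measured, with a median difference of 0.12. Over all genes 2.30% were higher and 2.28% lower. For 19 of the 44 all CRE-ERT2 arrays lay above all ERT2 arrays, as for 6.92% of all genes. For 3 (Pnpt1, Tdrd7 and Plscr1) they lay below, as for 15.5% of all genes. Slfn5, a Schlafen family gene, had 8.31, 8.18 and 8.30 on the CRE-ERT2 arrays, against 7.34, 7.31 and 7.38 on the ERT2 arrays. Its rise of 0.92 ± 0.07 (SE; 1.89-fold, limma adjusted p = 9.33e-06) exceeded those of all members except Rtp4. Slfn1 rose by 0.63 (adjusted p = 0.00583), the guanylate-binding protein gene Gbp4 by 0.48 (0.0273) and Slfn8 by 0.46 (0.0494). The calls of Gbp4 and Slfn8 were lost without CRE-ERT2 replicate 1 (0.0843 and 0.156) or 3 (0.152 and 0.242), and that of Slfn8 without ERT2 replicate 3 (0.0970) and after a further quantile normalization (0.0531). Schlafen and guanylate-binding protein genes have close paralogs that these probe sets could in part read. Over the 6 pathway lists together, 15 of 111 genes rose (2.30% of all genes did) and 1 fell (2.28% of all genes). The count of genes that rose was 5 without CRE-ERT2 replicate 1 (1.44% of all genes) and 6 without CRE-ERT2 replicate 3 (1.43%). With all probe sets tested, Tlr9 and Slfn5 were the pathway genes that passed and 0 fell (0.309% of all probe sets were lower), and with a trended, robust variance 2 did (4.80% of all genes).

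**Figure D4:**
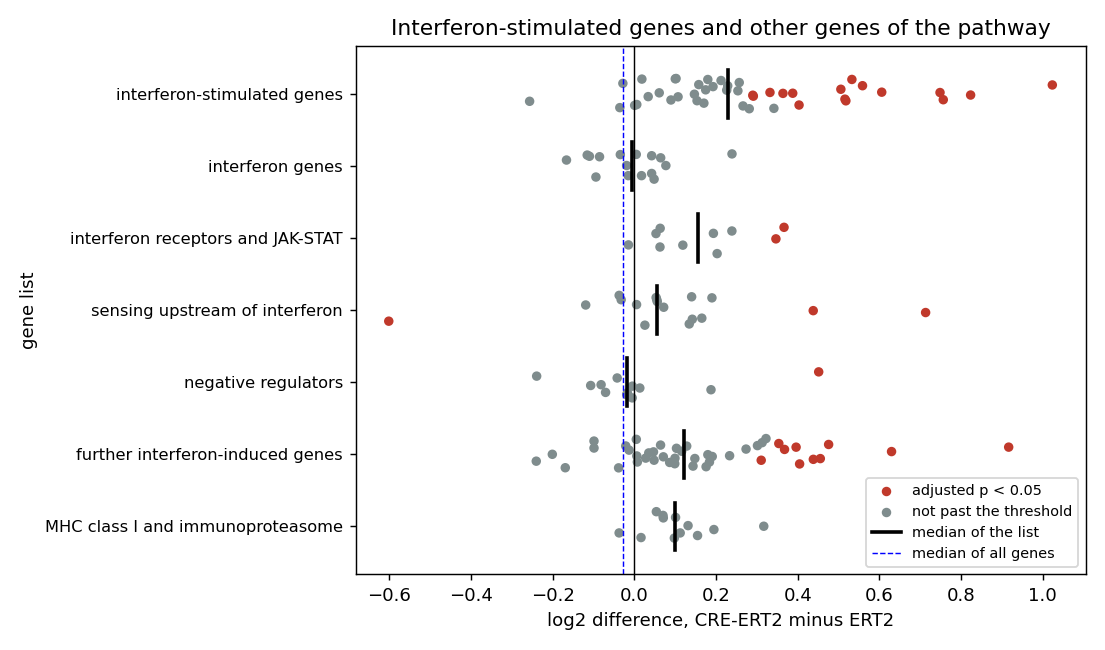
Log2 difference, CRE-ERT2 minus ERT2 (horizontal axis), of each measured gene (points) in the interferon-stimulated list and 6 pathway lists (vertical axis), with list medians as black bars; red points have a limma adjusted p under 0.05. The interferon-stimulated genes have a median of 0.23, the interferon genes one of -0.0053, and Tlr4 stands alone on the left at -0.60.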

How the data were processed

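For each array the authors deposited log2 expression values, 1 for every probe set. The submitters' processing notes name RMA and Partek 6.5 but give neither a role, and the log2 scale was read from the range of the values. Of 35556 probe sets, 21789 list 1 gene, 1621 several and 12146 none, and only the first were used. A gene with several kept the probe set whose mean was highest, which gave 19938 genes, without further normalization or filtering.

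CRE-ERT2 arrays were compared with ERT2 arrays with lmFit and eBayes of limma 3.58.1 (R 4.3.3), in two-sided tests with no covariates. Benjamini-Hochberg adjustment ran over the 19938 genes, and a gene passed at an adjusted p under 0.05, whatever its size of change. The fit was tested on simulated data. The members, lists, tests and alternatives were chosen with earlier results of these data known.

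Every member is accounted for. Array values are given for members that passed and, to make 2 per role group, for those of lowest p. Pathway lists name up to 4 passing genes of largest change, or else those of lowest p up to 2. Genes outside this rule (Jak1, Tyk2, Dntt, Rag2, Flt3, Pnpt1, Tdrd7 and Plscr1) were chosen after their values were seen. Replicate numbers were not taken to pair arrays. Between the groups, the correlation of deviations from group means was -0.11, -0.37 and -0.07 for equal numbers 1, 2 and 3. For unequal numbers it was -0.32 to 0.45, the highest being that of CRE-ERT2 replicate 1 with ERT2 replicate 2. What the arrays share across the groups was not tested. Alternatives covered the scaling (quantile normalization on top of the deposited values, or centring), leaving out dim genes, averaging the probe sets of a gene, testing every probe set, a trended, robust variance, array weights, a replicate block and leaving out each array. Scan dates were not used here, so batches were not tested.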

Additional observations from a re-analysis of the deposited data

How the results depend on the processing

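Of the 16 interferon-stimulated genes that rose, 6 passed under all 14 alternatives and 8 whichever array was left out. Among the genes named by the rule above, none that passed in the main fit or an alternative changed sign. Sign changes of differences that passed in neither were not counted. The count was 10 to 15 when 1 array was left out, 6 when all probe sets were tested and 15 to 19 under the other alternatives that kept all arrays and set no block. Under a replicate block 13 passed (1.64% of all genes did), all of them among the 16. The median log2 difference of the members was 0.20 to 0.27 throughout. The 15 pathway genes that rose were 5 to 15 without 1 array, 2 with all probe sets tested, 8 with the replicate block and 15 to 22 under the other alternatives. The count that fell was 0 with all probe sets and 2 with a trended, robust variance, against 1. Testing all probe sets changed both the variance estimate and the number of features adjusted over, and the cause of the shifts was not tested. Without ERT2 replicate 1, the uncalled differences of Tapbp, Ptpn2 and Nlrc5 were 0.15, -0.15 and 0.11. That of Ifnl2 was 0.12 without ERT2 replicate 2, and that of Ifna14 -0.09 without CRE-ERT2 replicate 1 and -0.08 without ERT2 replicate 3. Whether equal numbers pair the arrays is not known, so what a call lost under the block means cannot be told. Under it Uba7 (adjusted p = 0.124), Oasl2 (0.108) and Isg20 (0.0801) did not pass. The number of arrays limits precision, and signal over background is unknown.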
